A study of Mus musculus with 13 samples.

Results

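Bone morphogenetic proteins (BMPs) and the proteins that hold them in check were followed as transcripts in the cerebral meninges of newborn mice. The group is defined by gene name, and consists of 7 ligand genes (Bmp2, Bmp3, Bmp4, Bmp5, Bmp6, Bmp7 and Gdf10) and 3 antagonist genes (Grem1, Nog and Bambi). All 10 were measured, each by 1 probe set with a single gene symbol, among 19938 genes tested. The animals were newborn C57BL6 pups of 1 litter, with 1 Affymetrix Mouse Gene 1.0 ST array per pup. There were 4 mutants, which lacked PDGF-C and carried 1 Pdgfra allele replaced by GFP (Pdgfc-/-; Pdgfra GFP/+), and 9 littermate controls. The control group pooled Pdgfc+/+, Pdgfc+/- and Pdgfc-/- pups as well as Pdgfc+/+ and Pdgfc+/- pups with the Pdgfra GFP allele, and which control had which genotype is not in the labels. The GFP allele is a null allele that also marks Pdgfra-expressing cells, and both genes were altered in the whole animal.

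BMPs are secreted dimers of the TGF-beta superfamily. They bind a complex of type I and type II serine/threonine kinase receptors, which phosphorylates SMAD1, SMAD5 and SMAD9, and these enter the nucleus with SMAD4 to switch on targets such as the Id genes. Noggin and gremlin bind the ligands outside the cell, and BAMBI is a membrane protein that resembles a type I receptor but lacks the kinase. In the developing head the meninges are a known source of BMPs for the underlying cortex, and BMPs also act in the skull above.

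In mutant meninges Bmp3, Bmp4, Bmp6 and Bmp7 fell and Bmp5 rose, while Bmp2, Gdf10, Grem1, Nog and Bambi did not pass the test. The falls were 1.77-fold to 2.09-fold and the rise was 1.39-fold. Of the 10 members, 4 fell, where 6.31% of all tested genes did, and 1 rose, where 8.58% of all genes did (14.9% for both directions). The median log2 fold change of the members was -0.21, against 0.0043 over all tested genes. Members and the lists below were chosen with earlier results of these data known, so their counts beside the shares of all genes are a description. Here a gene rose or fell at a Benjamini-Hochberg adjusted p under 0.05 in limma, fitted to log2(intensity + 16) over all genes. The fold of a dim gene is therefore smaller than its ratio of intensities. RNA was taken from whole tissue, so fewer cells of a type and less RNA per cell cannot be told apart. Adding a constant of 1 in place of 16 moved the log2 fold change of Bmp3 to -1.24 and left 4 falls and 1 rise among the members.

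Across the arrays, the median intensity was 56.0 to 89.7 in mutants and 44.1 to 89.0 in controls, and no read depth applies. Pdgfc, the targeted ligand gene, lay between 22.8 and 29.3 in the 4 mutants. In the controls it was 5.88 in control 2 and 103 to 275 in the other 8, so control 2 was below the mutants and the other controls above them. Pdgfra had an intensity of 788 to 1561 in mutants and 1039 to 2255 in controls. Xist, which is transcribed from the inactive X chromosome of females, was at 2.24 to 4.77 in all 4 mutants. It was at 4.78 to 8.73 in controls 1, 5 and 8 and at 536 to 1020 in the other 6, so sex was not balanced between the groups. The meningeal markers were present: 13 of 13 genes of meningeal fibroblasts were measured, at summed intensities of 25997 to 39779 in mutants and 32565 to 42872 in controls.

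**Figure D1:**
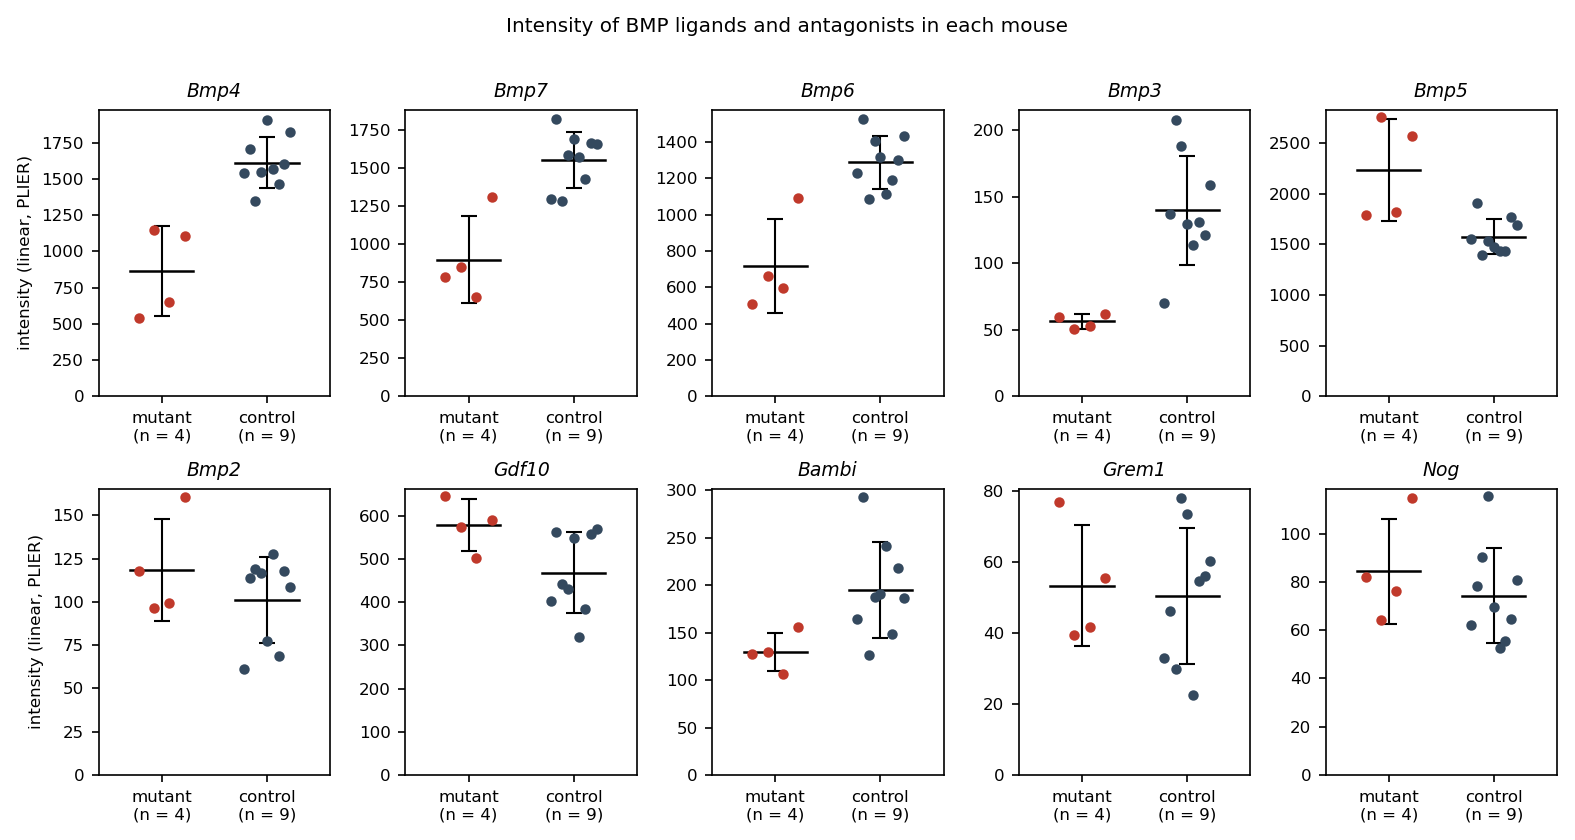
Intensity (linear scale, from 0) of the 10 BMP ligands and antagonists in each mouse, with 4 mutants left and 9 controls right in every panel. Points are mice, and lines and bars are the mean and SD. For Bmp3 and Bmp4 all 4 mutants lie below all 9 controls, and for Bmp5 mutants 2 and 4 lie above every control.

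Bmp4 encodes a ligand of mesenchymal and neural patterning. Its intensity was 542, 1152, 652 and 1104 in mutants 1 to 4, and 1347 at the lowest, 1567 at the median and 1912 at the highest in the controls. All 4 mutants were below all 9 controls, and mutants 1 and 3 were the lowest. Mutants averaged 862 ± 310.3 (SD, n = 4), against 1614 ± 175 (SD, n = 9) in controls. The log2 fold change by limma was -0.96 with a standard error of 0.17 (adjusted p = 0.000469). Permuting the group labels exactly gave a two-sided p of 0.0028 over the 715 possible splits. The two-sided p doubles the one-sided p, and 0.0028 is the smallest it can be with these group sizes. Groups that do not overlap, with the mutants below, were found for 3.04% of all tested genes (9.44% in either direction), and among the members for Bmp3 and Bmp4.

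Bmp7 encodes a ligand that the meninges are known to secrete. It was at 781, 848, 651 and 1308 in mutants 1 to 4, against 1281 (lowest), 1584 (median) and 1822 (highest) in controls. The groups overlapped through mutant 4, which lay above controls 1 and 3, and the other 3 mutants were below every control. Its log2 fold change was -0.82 ± 0.16 (standard error), with an adjusted p of 0.000824 and an exact permutation p of 0.0084. The mutant mean was 57.7% of the control mean, at 897 ± 286 (SD, n = 4) against 1554 ± 185 (SD, n = 9).

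Bmp6, whose product is best known as the signal that sets hepcidin in the liver, followed Bmp7 closely. It was at 509, 660.2, 597 and 1092 in mutants 1 to 4, against 1089 (lowest), 1300.15 (median) and 1524 (highest) in controls. Again 3 mutants lay below every control, and mutant 4 was level with control 3. Mutants averaged 715 ± 259 (SD, n = 4), against 1289 ± 147 (SD, n = 9) in controls. This was a log2 difference of -0.89 ± 0.16 (standard error), with an adjusted p of 0.000537 and an exact permutation p of 0.0056.

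Bmp3 encodes an unusual member of the family that opposes the bone-forming BMPs. It was at 59.8, 50.4, 53.0 and 61.8 in mutants 1 to 4, against 70.3 (lowest), 131 (median) and 208 (highest) in controls. No mutant overlapped a control, and control 1 stood below the other 8 controls, which began at 114. The average was 56.3 ± 5.43 (SD, n = 4) in mutants, against 139.7 ± 40.8 (SD, n = 9) in controls. On the log2 scale Bmp3 fell by 1.06 ± 0.19 (standard error), a 2.09-fold difference, with an adjusted p of 0.000351 and an exact permutation p of 0.0028. All 4 mutant values were below the median intensity of their own array (89.7, 67.3, 56.0 and 85.9 in mutants 1 to 4). No detection call was used, so whether Bmp3 was above background in mutants was not tested, and the size of its fold depends on the constant added before log2. With the constant of 16 it was the only member past the 2-fold threshold of the study's methods as well as the adjusted p, which 0.792% of all tested genes passed as lower and 3.28% as higher. With the Xist level as a covariate its log2 fold change was -0.69 and its adjusted p 0.0509. Controls 1, 5 and 8, which had little Xist as the mutants did, had Bmp3 intensities of 70.3, 130 and 121.

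Bmp5, the gene of the classical short-ear mutation of the mouse, went the other way. It was at 1786, 2761, 1817 and 2572 in mutants 1 to 4, against 1398 (lowest), 1529.7 (median) and 1905.5 (highest) in controls. Mutants 2 and 4 lay above every control, whereas mutants 1 and 3 lay between control 8 and control 2, the highest of the controls. Mutants averaged 2234 ± 506 (SD, n = 4), against 1576 ± 175 (SD, n = 9) in controls. The log2 fold change was 0.48 ± 0.14 (standard error), with an adjusted p of 0.0247 and an exact permutation p of 0.0112. The call did not hold without mutant 2 (adjusted p = 0.133) or mutant 4 (0.0998), nor with Xist as a covariate (0.1895), at log2 fold changes of 0.37, 0.40 and 0.46.

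Mutants varied more among themselves than controls did in Bmp4, Bmp5, Bmp6 and Bmp7. On the log2 scale the SD of Bmp4 was 0.53 in mutants and 0.15 in controls, that of Bmp6 0.47 and 0.16, that of Bmp7 0.42 and 0.17, and that of Bmp5 0.33 and 0.15. Bmp3 had the opposite spread, with an SD of 0.11 in mutants and 0.40 in controls, as did Gdf10, with 0.15 in mutants and 0.29 in controls. The Bmp3 intensity of every mutant was below the median of its own array, and the part of background in its narrow spread was not tested. A test with unequal variances, which estimates the spread of each group on its own, left Bmp3 as the only called member (adjusted p = 0.000794). In that test the adjusted p was 0.209 for Bmp4, 0.185 for Bmp6, 0.172 for Bmp7 and 0.2795 for Bmp5.

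**Figure D2:**
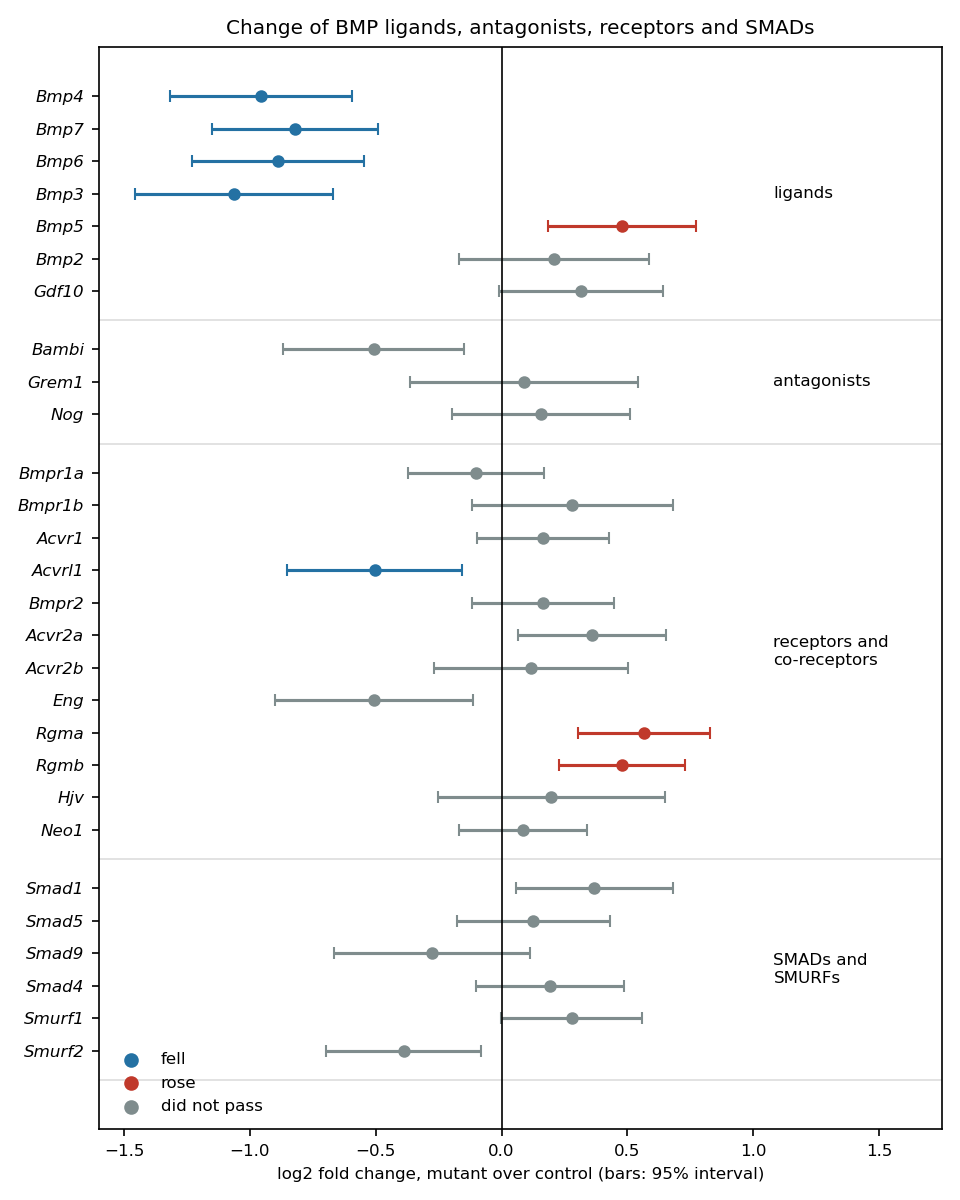
Log2 fold change of mutant over control meninges (x axis) for the members, the BMP receptors and co-receptors and the SMADs and SMURFs (y axis), with 95% intervals from limma. Blue marks genes that fell, red genes that rose and grey genes that did not pass, and Bmp3, Bmp4, Bmp6 and Bmp7 stand left of 0 while Bmp5 stands right of it.

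Because each mouse has its own array, the ligands were also compared within an array, where any factor that scales a whole array cancels. These pairs were chosen after the values were seen and are given as a description. The log2 value of Bmp5 minus that of Bmp4 lay between 1.21 and 1.69 in mutants, against -0.37 and 0.16 in controls. For Bmp5 minus Bmp6 the ranges were 1.22 to 2.04 in mutants and 0.12 to 0.44 in controls, and for Bmp5 minus Bmp7 they were 0.97 to 1.69 and -0.20 to 0.25. In all 3 pairs the groups did not overlap. Because the pairs set the called rise of Bmp5 against called falls, this separation adds no support to those calls. The falling ligands, set against each other, differed little between the groups. Bmp6 minus Bmp7 averaged -0.33 ± 0.20 (SD) over the 4 mutants, against -0.27 ± 0.12 over the 9 controls. For Bmp4 minus Bmp6 the mean was 0.25 ± 0.36 in mutants and 0.32 ± 0.13 in controls, and for Bmp4 minus Bmp7 it was -0.08 ± 0.40 and 0.055 ± 0.11.

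**Figure D3:**
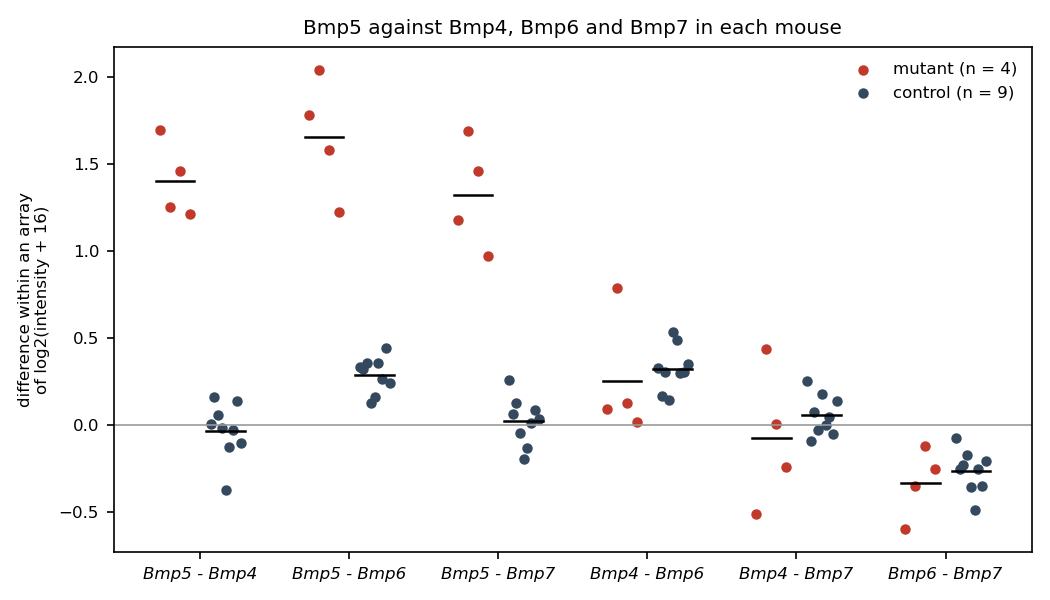
Difference of the log2(intensity + 16) values of 2 ligands on the same array (y axis) for 6 pairs (x axis), with mutants left and controls right and a line at each mean. The 4 mutants lie above all 9 controls for Bmp5 minus Bmp4, Bmp6 or Bmp7, and the groups overlap for the other 3 pairs.

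Within the groups Bmp5 nevertheless varied together with the ligands that fell. After the mean of each group was removed, its Pearson correlation over the 13 arrays was 0.824 with Bmp4, 0.707 with Bmp6 and 0.666 with Bmp7. Bmp4 had a correlation of 0.732 with Bmp6 and 0.683 with Bmp7, and Bmp6 one of 0.855 with Bmp7. Mutants 2 and 4, which had the higher Bmp4 of the mutants, thus also had the higher Bmp5. Bmp3 stood apart, at -0.10 with Bmp4, -0.09 with Bmp5, 0.11 with Bmp6 and 0.15 with Bmp7. These correlations describe 13 arrays that share their own brightness: after the same centring, the log2 median intensity of the array had a correlation of 0.23 with Bmp4, 0.301 with Bmp5, 0.465 with Bmp6 and 0.555 with Bmp7. The mean intensity of the array was 286.6, 326.3, 245.2 and 339.1 in mutants 1 to 4. By that mean, mutants 2 and 4 were also the brightest mutant arrays. Correlations with the mean were not computed, and the part of brightness in how the ligands varied together was not tested.

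The start regions of ligands that moved in opposite directions are shown next, because RefSeq (GRCm38.p6) lists promoters for Bmp4 and Bmp6, which fell, and for Bmp5, which rose. Entries were used for 5 of the 10 members, with Gdf10 and Grem1 the others. Each run is the 250 bases before the annotated start, 5′ to 3′ on the strand of the gene. Capitals mark the GC box GGGCGG on either strand, the one motif of 4 that was found in these 3 runs.
Bmp4, chr14:46390670-46390919, minus strand: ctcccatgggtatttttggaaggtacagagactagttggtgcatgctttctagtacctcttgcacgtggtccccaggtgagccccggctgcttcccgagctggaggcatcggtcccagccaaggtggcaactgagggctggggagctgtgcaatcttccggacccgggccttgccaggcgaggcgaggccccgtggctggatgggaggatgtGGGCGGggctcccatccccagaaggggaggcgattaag
Bmp6, chr13:38345466-38345715, plus strand: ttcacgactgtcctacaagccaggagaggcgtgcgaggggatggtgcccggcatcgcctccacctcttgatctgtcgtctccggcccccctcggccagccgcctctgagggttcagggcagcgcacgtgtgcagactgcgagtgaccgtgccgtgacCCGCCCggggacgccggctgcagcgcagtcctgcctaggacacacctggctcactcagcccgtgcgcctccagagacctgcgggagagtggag
Bmp5, chr9:75775115-75775364, plus strand: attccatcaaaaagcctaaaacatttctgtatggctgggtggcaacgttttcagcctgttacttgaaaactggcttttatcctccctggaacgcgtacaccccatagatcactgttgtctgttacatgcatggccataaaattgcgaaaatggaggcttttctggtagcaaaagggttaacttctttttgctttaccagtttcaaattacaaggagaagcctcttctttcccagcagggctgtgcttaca

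The start region of Bmp5 had a GC content of 42.8% and 4 CpG dinucleotides. That of Bmp4 had 63.2% and 11, and that of Bmp6 68.8% and 22, where the median of all 32851 promoters in the table was 52.4% and 6. The GC box occurred 1 time each in the runs of Bmp4 and Bmp6 and was not among the letters of the Bmp5 run; 32.7% of all promoters of the same length held it. The other motifs searched on both strands, none of which was found in these 3 runs, were the TATA box TATAAA (12.4% of all promoters), the CCAAT box CCAAT (33.8%) and the GC-rich SMAD element GGCGCC (9.6%). The start regions of Gdf10 and Grem1, which did not pass the test, had GC contents of 78.8% and 72.0%, with 35 and 24 CpG dinucleotides. They held the GC box 4 and 3 times, and that of Grem1 also held 1 CCAAT box and 1 SMAD element. Whether GC content goes with the direction of change was not tested. A match of letters is a description of the sequence and not a measured site.

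Of the ligands without a call, Gdf10, which encodes a close relative of BMP3, was at 647, 575, 503 and 591 in mutants 1 to 4, against 318 (lowest), 443 (median) and 569.9 (highest) in controls. Mutants 1, 2 and 4 were above every control. Its log2 fold change was 0.32 (95% interval -0.01 to 0.64, adjusted p = 0.232). Within the groups Gdf10 followed the brightness of the array, with a correlation of 0.771 with the log2 median over the 13 arrays, and the part of brightness in its values was not tested. Bmp2, the ligand closest to BMP4 in sequence, was at 118, 96.4, 99.45 and 160.45 in mutants 1 to 4, against 61.3 (lowest), 114 (median) and 128 (highest) in controls. The groups overlapped, with mutant 4 above every control, and the log2 fold change was 0.21 (95% interval -0.17 to 0.58, adjusted p = 0.6496).

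Among the antagonists Bambi came closest to a call. It was at 127, 129, 107 and 155 in mutants 1 to 4, against 126 (lowest), 187 (median) and 292 (highest) in controls. Mutant 3 was below every control and the other 3 lay among the lower controls. The log2 fold change was -0.51 (95% interval -0.87 to -0.15, adjusted p = 0.0539, exact permutation p = 0.0196). It passed without mutant 4 (adjusted p = 0.0485), control 3 (0.0178) or control 7 (0.0431), after quantile normalization (0.00107), and in 6 more of the 29 alternatives. In all 29 its log2 fold change was below 0, between -0.61 and -0.15.

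Nog, the gene of noggin, was at 82.1, 64.0, 76.3 and 115 in mutants 1 to 4, against 52.5 (lowest), 69.4 (median) and 115.5 (highest) in controls, so the mutants lay within the range of the controls. Its log2 fold change was 0.16 (95% interval -0.20 to 0.51, adjusted p = 0.776). Grem1, the gene of gremlin, was at 76.9, 39.5, 41.8 and 55.6 in mutants 1 to 4, against 22.6 (lowest), 54.6 (median) and 78.0 (highest) in controls. Its log2 fold change was 0.09 (95% interval -0.36 to 0.54, adjusted p = 0.957), and its values followed the brightness of the array, with a correlation of 0.925 with the log2 median. The intervals of both genes leave room for changes of up to about the size seen for Bmp5, in the case of Nog up to 0.51 and in that of Grem1 up to 0.54 on the log2 scale.

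The rest of the pathway was described with 5 further lists, which hold 54 measured genes, of which 7 rose and 5 fell, where 8.58% of all tested genes rose and 6.31% fell. None of 8 other ligand genes (Bmp8a, Bmp8b, Bmp10, Bmp15, Gdf2, Gdf5, Gdf6 and Gdf7) rose or fell in limma. Their log2 fold changes lay between -0.13 and 0.15, and no unadjusted p was under 0.05. None of them fell in any alternative, and 2 rose with each array centred on fibroblast genes. Of 17 measured secreted modulators only Vwc2, the gene of the neural BMP antagonist brorin, rose, with none falling. It was at 102.5, 131, 82.7 and 128 in mutants 1 to 4, against 35.2 (lowest), 66.0 (median) and 75.3 (highest) in controls, with no overlap and a log2 fold change of 0.70 (adjusted p = 0.0036). Groups with the mutants above all controls were found for 6.4% of all tested genes. The rest of that list, with Chrd and Fst, which encode the antagonists chordin and follistatin, did not pass, at log2 fold changes of -0.24 to 0.37.

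Of 12 receptors and co-receptors Rgma and Rgmb rose and Acvrl1 fell, where 8.58% of all tested genes rose and 6.31% fell. Rgma and Rgmb encode membrane-anchored BMP co-receptors that are also known in axon guidance. Rgma was at 483, 381, 347 and 463 in mutants 1 to 4, against 253 (lowest), 257 (median) and 327 (highest) in controls, a log2 fold change of 0.57 (adjusted p = 0.003). Rgmb was at 297, 336, 281 and 322 in mutants, against 185 (lowest), 214 (median) and 257 (highest) in controls (log2 fold change 0.48, adjusted p = 0.0085). In both genes every mutant was above every control, as in 6.4% of all tested genes. Acvrl1, which encodes the endothelial type I receptor ALK1, fell by 0.50 on the log2 scale (adjusted p = 0.0463). It lost this call in 17 of the 29 alternatives. The type I and type II receptor genes of the ligands themselves, Bmpr1a, Bmpr1b, Bmpr2, Acvr1, Acvr2a and Acvr2b, did not pass, at log2 fold changes of -0.10 to 0.36. Nor did Eng, the gene of the endothelial co-receptor endoglin, at -0.51, or any of the 6 SMAD and SMURF genes, at -0.39 to 0.37. Among these, Eng, Acvr2a, Smad1 and Smurf2 had limma p values under 0.05 before adjustment (0.0142, 0.0197, 0.0233 and 0.0158).

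**Figure D4:**
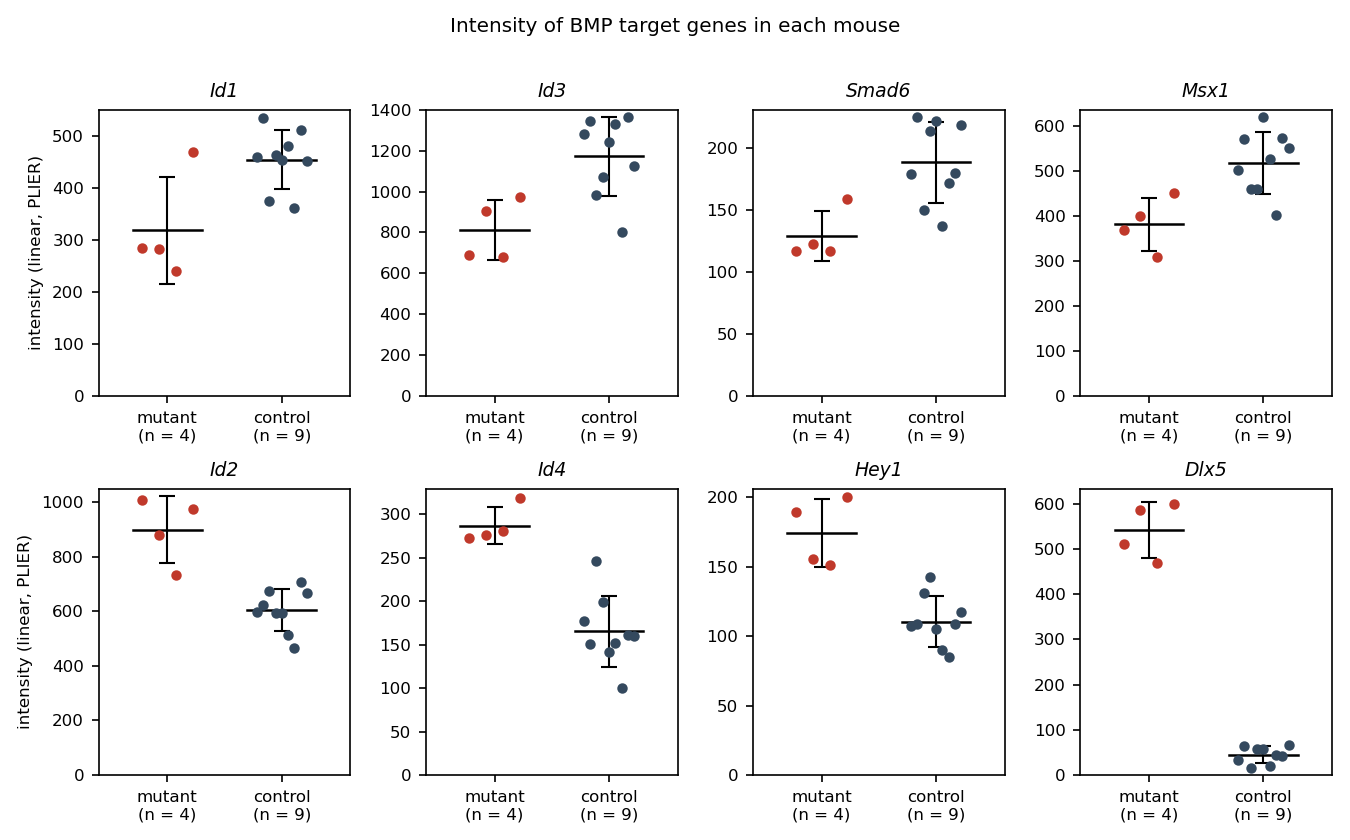
Intensity (linear scale, from 0) of 8 BMP target genes in each mouse, with 4 mutants left and 9 controls right. Points are mice, and lines and bars are the mean and SD; Id1, Id3, Smad6 and Msx1 fell with overlap between the groups, while for Id2, Id4, Hey1 and Dlx5 all 4 mutants lie above all 9 controls.

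The 11 target genes split, with 4 that rose and 4 that fell, against 8.58% and 6.31% of all tested genes. The rises were Dlx5, Id4, Hey1 and Id2, at log2 fold changes of 3.26, 0.77, 0.59 and 0.56 (adjusted p = 2.35e-09, 0.00202, 0.00419 and 0.0056), with every mutant above every control, as in 6.4% of all tested genes. Dlx5 had intensities of 469 to 600.2 in mutants and 15.8 to 66.7 in controls. It is also a transcription factor gene of cortical interneurons, Id2 and Id4 are also expressed in the developing cortex, and Hey1 is also a target of Notch. The falls, named after their values were seen, were Id1, Id3, Smad6 and Msx1. Id1 and Id3, which encode inhibitors of basic helix-loop-helix factors, had log2 fold changes of -0.52 and -0.52 (adjusted p = 0.0264 and 0.0258). Smad6, the gene of an inhibitory SMAD that the pathway induces on itself, fell by 0.49, and Msx1, a homeobox gene of head mesenchyme, by 0.43 (adjusted p = 0.026 and 0.0394). Id1 was at 284, 283, 240 and 471 in mutants 1 to 4, against 361 (lowest), 460 (median) and 535 (highest) in controls, so mutant 4 lay among the controls as it did for Bmp6 and Bmp7. The 3 others that did not pass were Smad7 (log2 fold change 0.06), Atoh8 (-0.29) and Msx2 (0.46, adjusted p = 0.0682). In the same comparison all 12 pan-neuronal genes rose and 7 of 10 endothelial genes fell. The part of such cell types was not tested for the targets that rose or for those that fell.

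The falls in these 5 lists, Acvrl1 and the 4 targets, depended on which mice were included. Their number was 0 without mutant 1 or mutant 3, 2 without mutant 2, 1 without control 8 and 3 without control 2, 5, 6 or 9. The 7 rises numbered 7 to 9 when 1 mouse was left out.

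Marker genes of other cell types were counted in the same comparison, where 8.58% of all tested genes rose and 6.31% fell. All 12 pan-neuronal genes rose, at summed intensities of 10291 to 12879 in mutants and 1343 to 3404 in controls, and the summed levels did not overlap. Of 10 endothelial genes 7 fell and none rose, at sums of 5380 to 7046 in mutants and 7552 to 15898 in controls. Of 10 microglial and macrophage genes 8 fell and 1 rose, at 2801 to 5036 in mutants and 7002 to 9241 in controls. In the fibroblast list 4 of 13 genes fell, among them Slc6a13 and Ptgds, and 2 rose, the collagen genes Col1a1 and Col3a1. The median log2 fold changes of these lists were 2.80 (pan-neuronal), -0.81 (endothelial), -0.84 (microglia and macrophage) and -0.29 (fibroblast), and no gene of the 4 lists was at 0 in any mouse. Of 6 measured skull and dura genes 1 rose (Dlx5, which is also in the target list) and 1 fell (Alpl), at summed intensities of 2093 to 2737 in mutants and 1861 to 2887 in controls. Of 10 astrocyte and radial glia genes 5 fell and none rose (sums of 9485 to 14554 in mutants and 12317 to 17127 in controls). Of 8 oligodendrocyte precursor genes 4 rose and 1, Pdgfra, fell (1532 to 2494 in mutants and 1450 to 2747 in controls). Of 7 choroid plexus genes Clic6 rose and Kl fell, with a median log2 fold change of -0.04. Their sum was 969 to 3797 in mutants and 839 to 1322 in controls, and Ttr made up 2841 of the highest sum, in 1 mutant. None of 9 mural genes and none of 8 skeletal muscle genes rose or fell, at median log2 fold changes of -0.07 and 0.19. The part of these cell types in the changes of the members and their targets was not tested.

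**Figure D5:**
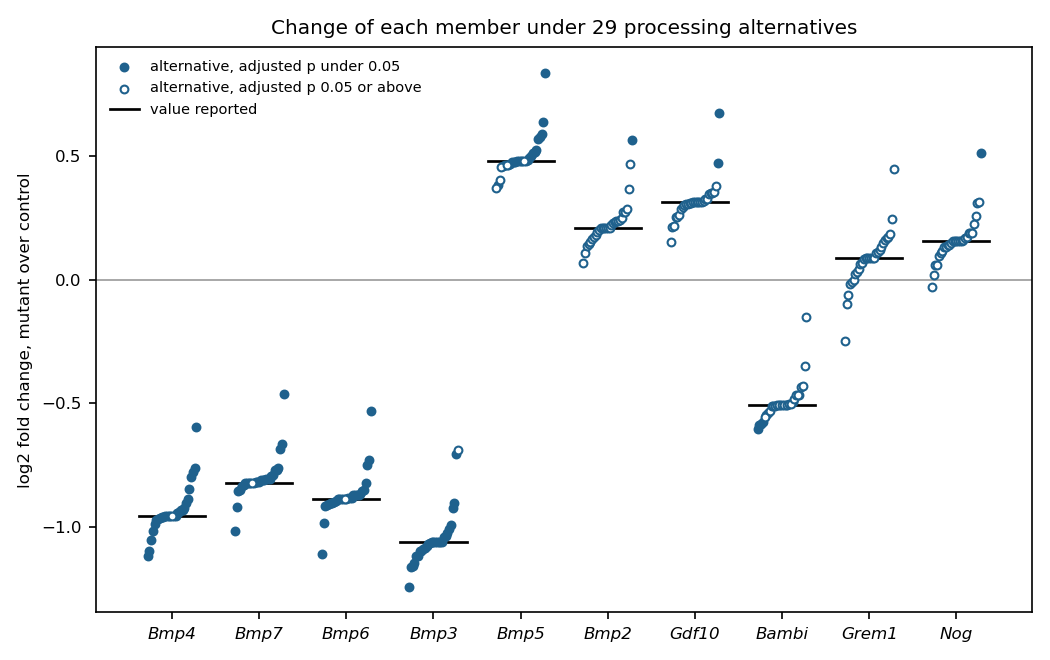
Log2 fold change of mutant over control for each member (x axis) under the 29 processing alternatives (points, filled where the adjusted p was under 0.05), with a line at the value reported. Bmp4, Bmp7, Bmp6, Bmp3 and Bambi stay below 0 and Bmp5, Bmp2 and Gdf10 above 0 in all 29, while Grem1 and Nog lie on both sides of 0.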

How the data were processed

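For 35557 probe sets on 13 arrays the authors deposited linear intensities made with PLIER, a model that gives 1 intensity per probe set; its version, background step and scaling between arrays are not given in the sources used here. No value is below 0, and array medians differ. Arrays have no read depth, and their number limits the precision. The platform table gave 21789 probe sets 1 gene symbol, 1621 several and 12147 none. The brightest single-symbol probe set stood for a gene (999 genes had several), and 21698 were matched by gene ID to the mouse annotation with 0 symbols changed.

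Values were taken as log2(intensity + 16) and fitted with limma 3.58.1 (lmFit, eBayes, two-sided) in R 4.3.3 over 19938 genes, with Benjamini-Hochberg adjustment over all of them, 4 mutants against 9 controls and no covariate. The methods' own threshold was a 2-fold change and a t-test; applied here at an unadjusted p it gave 653 higher and 159 lower genes, among them 1 lower member. Exact permutation tests (SciPy 1.17.1) used all 715 splits of the mice and were not adjusted over the members. The fit was tested on simulated data before use. Python 3.11.15 and matplotlib 3.10.9 made the figures.

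The members and lists were chosen with earlier results of these data known. All members are named, as are the genes past the threshold in each other pathway list or the 4 with the smallest adjusted p where more passed; other names were chosen after their values were seen. Alternatives were tests with equal or unequal variances, array weights, an intensity trend, 4 normalizations, constants of 1 and 32, a filter on the dimmest 25% of genes, other uses of the probe sets, Xist as a covariate, a block on replicate number, and each mouse left out in turn. A run without the 4 dimmest arrays (mutant 3 and controls 1, 3 and 6) was added after the data were seen. The p-values measure the spread between pups of 1 litter only.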

Additional observations from a re-analysis of the deposited data

How the results depend on the processing

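Over the 29 alternatives the log2 fold change stayed between -1.24 and -0.69 for Bmp3, -1.12 and -0.60 for Bmp4, -1.11 and -0.53 for Bmp6, -1.02 and -0.46 for Bmp7, and 0.37 and 0.84 for Bmp5, and none of these 5 members or the 12 pathway genes that passed changed direction. Leaving out 1 mouse at a time gave 4 to 5 falls and 0 to 1 rises among the members, with no rise without mutant 2 or mutant 4. It gave 0 to 6 falls and 7 to 9 rises in the pathway lists, and 777 to 1490 falls and 1331 to 1904 rises over all genes. Bmp5 then ranged from 0.37 to 0.58 and Bambi from -0.59 to -0.43.

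With unequal variances 1139 genes rose and 400 fell, 0 members rose and 1 fell, and 4 pathway genes rose and 0 fell; Bmp4 (-0.96), Bmp6 (-0.89), Bmp7 (-0.82) and Bmp5 (0.48) lost their calls. Array weights gave 2023 falls over all genes and 8 in the pathway lists. Quantile normalization gave 2667 rises and 3610 falls, with 13 and 10 in the pathway lists, and centring on the array median gave 2862 and 10 falls. Centring on reference genes gave 3387 rises, with 2 member rises, 16 pathway rises, 2 pathway falls and a called Gdf10 (0.47). Centring on fibroblast genes gave 7513 rises and 503 falls, 4 member rises, and 27 pathway rises with 0 falls; Bmp2 (0.57), Gdf10 (0.67) and Nog (0.51) were then called higher. The share of rises among called genes was 57.6%, and became 42.5%, 38.7%, 78.2% and 93.7% under these 4 scalings, which moved the median of all genes to -0.04, -0.09, 0.16 and 0.36. It was 74.0% with unequal variances and 50.1% with array weights.

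Bambi was called with array weights (-0.54), an intensity trend (-0.51), quantile (-0.58) and median (-0.61) scaling, a constant of 32 (-0.47), without the dimmest 25% of genes (-0.51) and without the 4 dimmest arrays (-0.50). Pathway falls numbered 3 with a constant of 1, 3 with all probe sets and 2 without the 4 dimmest arrays. With Xist as a covariate 605 genes fell, 0 members rose, 1 pathway gene fell, and neither Bmp5 (0.46) nor Bmp3 (-0.69) was called.

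The labels do not say whether the replicate numbers pair the mice. Same-numbered mutants and controls had correlations of -0.344, 0.162, 0.307 and -0.0926, which are too few to settle this. Controls 5 to 9 share no number with a mutant. With the replicate number as a block, only controls that share a number with a mutant enter the comparison. In that fit 545 genes fell, 0 members rose and 4 fell, and 2 pathway genes rose and 0 fell. Bmp5 (0.46, limma adjusted p = 0.1006) was not called in it.

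Precision was limited by the 4 mutant arrays, and Grem1, Nog and, in mutants, Bmp3 lie near or below the median intensity of the arrays.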

Other observations

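Genes outside the group whose values followed a called member most closely were found by Pearson's r over the 13 arrays, after the mean of each group had been removed. The 2 highest were Arsi (0.961) and Fuca2 (0.958) for Bmp4, and both also fell in mutants, at log2 fold changes of -0.63 (limma adjusted p = 0.00249) and -0.43 (0.0476). For Bmp6 they were Selenbp1 (0.978) and Lbp (0.964), for Bmp7 Ascc2 (0.976) and Ccdc3 (0.972), for Bmp5 Eapp (0.976) and Zfp948 (0.957), and for Bmp3 Smim23 (0.883) and Slc25a18 (0.868). None of these 8 genes passed the test between mutants and controls, with adjusted p values from 0.112 to 0.915. The values describe 13 arrays that share array brightness and were picked as the highest among all tested genes.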
